A study of Mus musculus with 12 samples.

Results

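The microRNAs (miRNAs) of regulatory T (Treg) cells from Drosha-deficient mice were set against those of Treg cells from control mice. Each side held 1 small RNA library, so 2 of the 12 libraries of the study are described. The Treg Drosha library came from Drosha CD4-cre mice and the Treg control library from CD4-cre mice, both backcrossed to C57BL/6 and 6 to 7 weeks old. The cells were CD4+CD25+ cells sorted from spleen and lymph nodes. CD4-cre is a Cre recombinase driven by the regulatory sequences of the T cell gene Cd4, so both groups carry the recombinase and only one carries the Drosha deletion. Beside these, values are given from Treg cells of Dicer CD4-cre mice (Treg Dicer), and from Drosha Lck-cre and Lck-cre DN3 thymocytes (DN3 Drosha and DN3 control), which are immature T cell precursors of the thymus. These 3 groups have the same strain background and age, and the DN3 cells were sorted from thymus. Small RNA of 19 to 30 nt was cloned only if it had a 5′ phosphate and a 3′ hydroxyl. With 1 library a side, no difference below has a replicate check, and no p-value is given.

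Drosha is the nuclear RNase III enzyme that cuts the hairpin precursor (pre-miRNA) out of the long primary transcript, and Dicer then cuts the hairpin into a short duplex. One strand of the duplex, the guide, is kept by an Argonaute protein, and the other, the passenger (marked with an asterisk below), is mostly lost. Some hairpins do not need Drosha: mirtrons are introns released by splicing, and a few short hairpins are made directly by transcription. In one known case, miR-451, Drosha is needed but Argonaute 2 makes the second cut in place of Dicer. Treg cells are CD4+ T cells that restrain immune responses, and mature miRNAs are known to be needed for their function. An existing mature miRNA can outlast the loss of its processing enzyme, and a sorted population can include cells in which the deletion failed. How much Drosha was left in the Treg Drosha cells was not measured in the files used here.

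The members were all miRNA strands named in either library, a strand being the guide or the passenger of 1 miRNA after summing its distinct sequences. The files held 221 strands, 208 in the Treg Drosha library and 197 in the Treg control library. Of these, 184 were listed in both, 24 in Treg Drosha only and 13 in Treg control only. Ratios were compared for 171 strands whose summed value over both libraries was at least 50, and 13 strands listed in both fell under this minimum. The deposited values are scaled to library totals that were close, 1027032 for Treg Drosha and 1002325 for Treg control. A loss shared by all miRNAs would therefore not be visible, and fewer cells with a miRNA cannot be told apart from less of it per cell. No sequence has a value below 10, so a strand that is not listed lay below that floor for each of its sequences. The number of reads behind each library is unknown.

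Blood and Treg miRNAs were present in both libraries. The lymphocyte miRNA miR-150 was at 10566 in Treg Drosha and 13579 in Treg control. miR-10a, which is known from Treg cells, was at 1684 in Treg Drosha and 2214 in Treg control, whereas DN3 Drosha listed it at 17 and DN3 control did not list it. The marker miRNAs of other cell types did not move together, and their part in the results was not tested. The erythroid list (miR-451, miR-144 and miR-486) summed to 8533 in Treg Drosha and 1198 in Treg control, with all 3 strands higher by at least 1 log2 unit relative to the median strand, as were 21.1% of all strands compared. Endothelial miR-126-3p and miR-126-5p summed to 206 in Treg Drosha and 34 in Treg control, where miR-126-5p was not listed. The mesenchymal list summed to 100 in Treg Drosha, from 4 strands (miR-143, miR-125b-5p, miR-145 and miR-199a-3p), and to 10 in Treg control, where only miR-143 was listed, and neither library listed miR-199b, miR-214 or miR-10b. The epithelial list (miR-200 family, miR-203 and miR-205) summed to 354 in Treg Drosha and 392 in Treg control. Of its 3 compared strands, 0 were past 1 log2 unit, where 21.1% of all strands were higher and 11.1% lower. Of its strands that were not compared, miR-200c was at 39 in Treg Drosha and 10 in Treg control, and miR-200b at 11 and 23. miR-205 (26) and miR-429 (10) were listed in Treg Drosha only. The myeloid list held 6 strands, of which miR-223 alone was higher, near the share of 21.1% over all strands.

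The sequences that the results turn on are printed here. The first set holds mature miRNAs that stood far above control in the Treg Drosha library or that share a family with one, from RefSeq (assembly GRCm38.p6), in which 179 of the 221 strands had a match. Capitals mark the seed, bases 2 to 8, which pairs with target mRNAs. The miR-181 strands share one seed, and miR-183, miR-96 and miR-182 have related but different ones.
miR-484: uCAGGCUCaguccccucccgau
miR-877: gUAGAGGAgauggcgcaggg
miR-223: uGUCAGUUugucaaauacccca
miR-451: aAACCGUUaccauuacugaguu
miR-144: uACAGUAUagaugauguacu
miR-183: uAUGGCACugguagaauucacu
miR-96: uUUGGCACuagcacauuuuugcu
miR-182: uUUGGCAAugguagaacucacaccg
miR-181a: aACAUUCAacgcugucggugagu
miR-181b: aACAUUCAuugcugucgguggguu
miR-181d: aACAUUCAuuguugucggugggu
miR-130a: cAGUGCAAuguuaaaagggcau
miR-301a: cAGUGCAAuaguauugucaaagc

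The second set holds forms of 3 miRNAs as listed in the libraries, in DNA letters. miR-17 and miR-181b are shown because their mean lengths differed most between Treg Drosha and Treg control in the 2 directions, and miR-142-5p because 1 of its forms departed furthest from its strand. They differ in their last bases, and the longer-start form of miR-142-5p begins 2 bases upstream and so has another seed, again in capitals.
miR-142-5p, 21 nt: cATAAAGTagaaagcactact
miR-142-5p, 2 bases upstream, 20 nt: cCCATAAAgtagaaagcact
miR-142-5p, 2 bases upstream, 21 nt: cCCATAAAgtagaaagcacta
miR-142-5p, 2 bases upstream, 22 nt: cCCATAAAgtagaaagcactac
miR-17, 21 nt: cAAAGTGCttacagtgcaggt
miR-17, 23 nt: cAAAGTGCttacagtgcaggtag
miR-17, 24 nt: cAAAGTGCttacagtgcaggtagt
miR-181b, 21 nt: aACATTCAttgctgtcggtgg
miR-181b, 23 nt: aACATTCAttgctgtcggtgggt
miR-181b, 24 nt: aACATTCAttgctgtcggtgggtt

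The miRNA repertoire of Treg Drosha cells kept most of the abundant members of the control, with a minority of strands far above it. Of the 171 strands compared, 36 (21.1%) were higher in Treg Drosha by at least 1 log2 unit, 19 (11.1%) were lower by as much, and 116 lay between. Ratios are log2 of the Treg Drosha value over the Treg control value, each with 0.5 added, minus the median of that ratio over the 171 strands, which was -0.13. The middle of the distribution ran from -0.44 (lower quartile) to 0.87 (upper quartile). With the ratio centred on abundant strands instead, which lowered the centre by 0.11, 42 strands were higher and 11 lower. Just inside the limit lay miR-210 at 1.02 and miR-19a, miR-466h and miR-29a at -1.01 each. Just outside it lay miR-146a and miR-30c at 0.98 each, miR-298 at 0.97 and miR-106a at -0.97. Of the 55 calls, 40 held in every alternative setting that compared the strand and 15 did not. Of these 15, the strands described below had ratios nearest to 0 of -0.84 for miR-19a, -0.91 for miR-19b and for miR-342-3p, -0.90 for miR-29a, -0.95 for miR-181d and for miR-1198, -0.82 for miR-297a, -0.75 for miR-671-5p, 0.82 for miR-210, 0.74 for miR-466b-3p and 0.81 for miR-497. The same held for miR-466h, miR-33*, miR-140* and miR-674, which were between -0.62 and -0.98. Among 59 strands with a mean value of 1000 or more, 8 were higher and 5 lower. Among 70 strands with a mean of 100 to 1000, 14 were higher and 7 lower, and among 42 under 100, 14 and 7. The 21.1% and 11.1% set beside the lists are over all 171 strands, whatever their value.

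**Figure D1:**
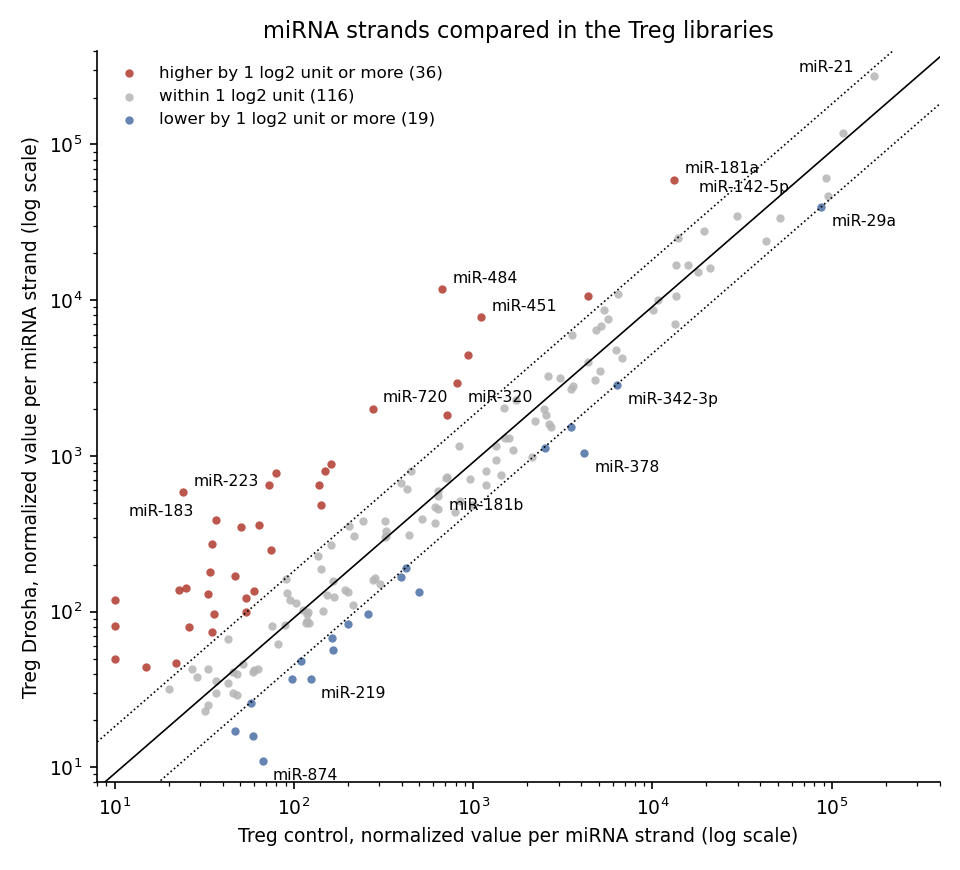
Normalized value of each compared miRNA strand in Treg Drosha (vertical, log scale) against Treg control (horizontal, log scale). The solid line is the median ratio and the dotted lines lie 1 log2 unit above and below it; 36 strands lie above the band and 19 below it, and miR-484, miR-223, miR-451 and miR-181a stand well above.

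The most abundant strands of both libraries largely coincided, with 8 shared between the 10 highest of each. miR-21, an abundant miRNA of activated lymphocytes whose hairpin lies in an untranslated exon part of Vmp1, was first in both, at 275990 (26.9% of the library) in Treg Drosha and 171793 (17.1%) in Treg control. miR-16, which targets cell cycle genes, was second in both, at 119254 in Treg Drosha and 114923 in Treg control. The miR-29 family made up 10.1% of the Treg Drosha library and 18.3% of the Treg control library. Within it miR-29a was at 39604 in Treg Drosha and 87488 in Treg control (-1.01), miR-29b at 60878 and 92688 (-0.47), and miR-29c at 3168 and 3049 (0.19). miR-142-5p, a miRNA of blood cells in general, was at 46754 in Treg Drosha and 94703 in Treg control (-0.88). miR-15b, from the same transcript as one copy of miR-16, was at 23967 in Treg Drosha and 42943 in Treg control (-0.71). miR-15a, from the transcript with the other copy of miR-16, was at 10616 in Treg Drosha and 4373 in Treg control (1.41). miR-497, whose seed is the same as that of miR-15a and miR-16, was at 47 in Treg Drosha and 22 in Treg control (1.21).

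The let-7 family stayed within 1 log2 unit of the median strand, with a list median of 0.53 against 0 for all strands. Its total was 12.1% of the Treg Drosha library and 12.2% of the Treg control library. None of its 12 compared strands passed 1 log2 unit, where 21.1% of all strands were higher and 11.1% lower. let-7f was at 34546 in Treg Drosha and 29674 in Treg control, let-7a at 27853 and 19334, and let-7g at 33533 and 51722. let-7c, at 10886 in Treg Drosha and 6436 in Treg control, had the highest ratio of the family, 0.89, and let-7g the lowest, -0.49. miR-146a, which restrains NF-kB signalling and is high in Treg cells, was among the 10 highest in Treg Drosha but not in Treg control. It was at 25115 in Treg Drosha, 24622 in Treg Dicer and 13966 in Treg control. miR-21, named above, was at 294500 in Treg Dicer. miR-155, which supports Treg competitiveness, was at 6781 in Treg Drosha and 5150 in Treg control (0.53).

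Hairpins known not to need Drosha were higher in Treg Drosha. miR-484, made from a short transcribed hairpin at chr16:14159626-14159692 (GRCm38.p6), which overlaps untranslated sequence of Marf1 on the other strand, was at 11746 in Treg Drosha and 671 in Treg control, a ratio of 4.26. It was at 1127 in Treg Dicer, 940 in DN3 Drosha and 755 in DN3 control. miR-320, the other short-hairpin miRNA, was at 2950 in Treg Drosha, 564 in Treg Dicer and 811 in Treg control (1.997 for Treg Drosha). Both compared strands of the preset list of Drosha-independent hairpins were thus past the limit that 21.1% of all strands passed, and the list summed to 15145 in Treg Drosha and 1482 in Treg control. The mirtron miR-877, from an intron of Abcf1 at chr17:35960730-35960814, was listed at 428 in Treg Drosha and not at all in Treg control, with 18 in Treg Dicer, 109 in DN3 Drosha and none in DN3 control. The mirtron miR-702 was listed at 21 in Treg Drosha and in none of the other 4 libraries. The remaining 5 hairpins of the list were not listed in either Treg library.

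miR-877 also had forms that the files assign to the precursor. All of its sequences share one start and differ in their 3′ end, and with these included it reached 1206 over 9 sequences in Treg Drosha, 60 over 3 in Treg Dicer and 202 over 5 in DN3 Drosha. The forms of 23 and 24 nt were at 415 and 332 in Treg Drosha, above the 22-nt form at 284. In DN3 Drosha the 22-nt form was highest, at 69, followed by the 24-nt form at 53 and the 23-nt form at 40. Both compared entries on the list of transfer, small nucleolar or ribosomal RNA fragments annotated as miRNAs were higher, where 21.1% of all strands were. miR-720 was at 2011 in Treg Drosha, 247 in Treg Dicer and 275 in Treg control (3.002 for Treg Drosha). miR-805 was at 349, 45 and 51 in the same order (2.90). In DN3 Drosha and DN3 control, miR-720 was at 495 and 599, and miR-805 at 126 and 291.

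miR-451 and its neighbour miR-144, which are known as erythroid miRNAs and lie together on chromosome 11, were both higher. miR-451 was at 7748 in Treg Drosha, 924 in Treg Dicer and 1102 in Treg control (2.95 for Treg Drosha). miR-144 was at 648 in Treg Drosha, 67 in Treg Dicer and 73 in Treg control (3.28). Erythroid miR-486 was at 137 in Treg Drosha and 23 in Treg control (2.68), and Treg Dicer did not list it. The 25-nt form of miR-451, which the files assign to the precursor, was at 605 in Treg Drosha and 68 in Treg control. Precursor forms made up 8.70% of miR-451 in Treg Drosha and 6.93% in Treg control, so that the mature and the longer forms were higher together. Whether red blood cell RNA took part in these values was not tested.

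The highest ratio of all belonged to miR-223, a miRNA of granulocytes and monocytes, which was at 588 in Treg Drosha, 746 in Treg Dicer and 24 in Treg control (4.72 for Treg Drosha). The other 5 strands of the myeloid list lay between -0.58 and 0.16. The list as a whole summed to 20521 in Treg Drosha and 22390 in Treg control, most of it from miR-24 and miR-23a, which T cells also express. The part of myeloid RNA in the miR-223 value was not tested. miR-138 was at 118 in Treg Drosha and at the floor of 10 in Treg control (3.63). miR-449a, which shares its seed with miR-34a and is known from ciliated epithelium, was at 81 in Treg Drosha and at the floor of 10 in Treg control (3.09), and miR-34a was at 487 and 141 (1.92).

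Several miRNAs of activated T cells were higher. The cluster of miR-183, miR-96 and miR-182 on chromosome 6 was higher in all 3 compared strands, against 21.1% over all strands, and miR-182 is known to be induced by interleukin-2 in helper T cells. miR-183 was at 385 in Treg Drosha, 89 in Treg Dicer and 37 in Treg control (3.50). miR-96 was at 362, 116 and 64 in the same order (2.62), and miR-182 at 652, 216 and 138 (2.37). DN3 thymocytes held little of the cluster, with miR-183 listed in neither library. Of the 7 compared strands of the activated T cell list, 5 were higher: these 3, miR-221 (249 in Treg Drosha and 75 in Treg control) and hypoxia-induced miR-210 (100 and 54), where 21.1% of all strands were higher. Within the same list miR-155 lay at 0.53 and miR-31, at 750 in Treg Drosha and 1425 in Treg control, at -0.79. The list median was 1.86, against 0 for all strands, and it was 0.52 when only strands with a summed value of at least 500 were compared.

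The X-linked cluster of miR-322, miR-503, miR-351, miR-542 and miR-450a, known from muscle differentiation, was also higher in each of its 3 compared strands, where 21.1% of all strands were. miR-503 was at 271 in Treg Drosha, 169 in Treg Dicer and 35 in Treg control (3.07), and miR-322 at 799, 456 and 149 in the same order (2.55). miR-450a-5p was at 170 in Treg Drosha and 47 in Treg control (1.98). The other 4 strands of the cluster were listed in Treg Drosha only: miR-322* at 53, miR-542-5p at 23, miR-351 at 15 and miR-542-3p at 14. The seed family AGUGCAA, which is spread over separate loci and was not a preset list, had 2 of 3 compared strands higher, where 21.1% of all strands were. miR-301a, from an intron of Ska2, was at 892 in Treg Drosha and 162 in Treg control (2.59), miR-130a was at 141 and 25 (2.61), and miR-301b was listed at 48 in Treg Drosha and not in Treg control. The member with the highest control value, miR-130b, was at 671 in Treg Drosha and 397 in Treg control and did not pass the limit (0.89).

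miR-181a, which sets the sensitivity of T cell receptor signalling in developing T cells, was the most abundant of the strands that were higher past the limit. It was at 59531 in Treg Drosha, 11488 in Treg Dicer and 13227 in Treg control (2.30 for Treg Drosha), and ranked 4 in Treg Drosha, against 17 in Treg control. Its passenger miR-181a* was at 777 in Treg Drosha, 113 in Treg Dicer and 80 in Treg control (3.41). The passenger thus took up 1.29% of the pair in Treg Drosha and 0.601% in Treg control. For 35 pairs of strands, the one marked with an asterisk or -3p was set against its partner, whichever was the guide. This ratio was higher in Treg Drosha by at least 1 log2 unit in 2 pairs (5.71%) and lower in 1 (2.86%). The miR-181a pair was the abundant one among them. The others were those of miR-466b-3p and miR-296-3p, the larger strands of their pairs in Treg control (74.5% and 73.9%). miR-128, another miRNA of immature T cells, was at 4471 in Treg Drosha, 794 in Treg Dicer and 935 in Treg control (2.39). In DN3 control miR-181a stood at 98891 and miR-128 at 33075. The other miRNAs listed as markers of naive or immature T cells were not past the limit. miR-150 lay at -0.23, miR-26a at 0.22 and miR-181b at 0.02, where 21.1% of all strands were higher.

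The relatives of miR-181a did not follow it. miR-181b is encoded next to miR-181a at both of its loci, on chromosomes 1 and 2, and was at 591 in Treg Drosha, 365 in Treg Dicer and 638 in Treg control (0.02 for Treg Drosha). miR-181c, on chromosome 8, was at 2292 in Treg Drosha and 1730 in Treg control (0.54), and its neighbour miR-181d was at 68 and 164 (-1.13). The 4 guides share the seed ACAUUCA and together were at 62482 in Treg Drosha and 15759 in Treg control, of which miR-181a made up most in both. In DN3 control miR-181b was at 21312 and in DN3 Drosha at 29171. The ratio of miR-181b depended on which of its forms was counted: with only its most abundant sequence taken, it was 2.24, and its leading form differed between the libraries, as given further on.

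Other families mostly had 1 strand past the limit, where 21.1% of all strands were higher and 11.1% lower. In the miR-30 family 1 of 6 compared strands was higher, near the share over all strands. It was miR-30a, at 129 in Treg Drosha, 131 in Treg Dicer and 33 in Treg control (2.09). The other 5 compared strands lay between -0.82 and 0.98. miR-146b, which shares its seed with miR-146a, was at 97 in Treg Drosha, 124 in Treg Dicer and 36 in Treg control (1.55). miR-107 was at 135 in Treg Drosha and 60 in Treg control (1.30), and its relative miR-103 lay at 0.81. Among 6 compared strands from the introns of the X-linked gene Clcn5, miR-501-3p alone passed the limit, again near the share over all strands. It was at 80 in Treg Drosha and 26 in Treg control (1.74). The large repeat-like cluster in an intron of Sfmbt2 (miR-297, miR-466, miR-467 and miR-669) had 14 compared strands, of which 1 was higher and 3 were lower, against 21.1% and 11.1% over all strands, and it summed to 2728 in Treg Drosha and 4063 in Treg control. The clusters of miR-23, miR-24 and miR-27 had none of 6 past the limit, where 21.1% of all strands were higher and 11.1% lower.

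**Figure D2:**
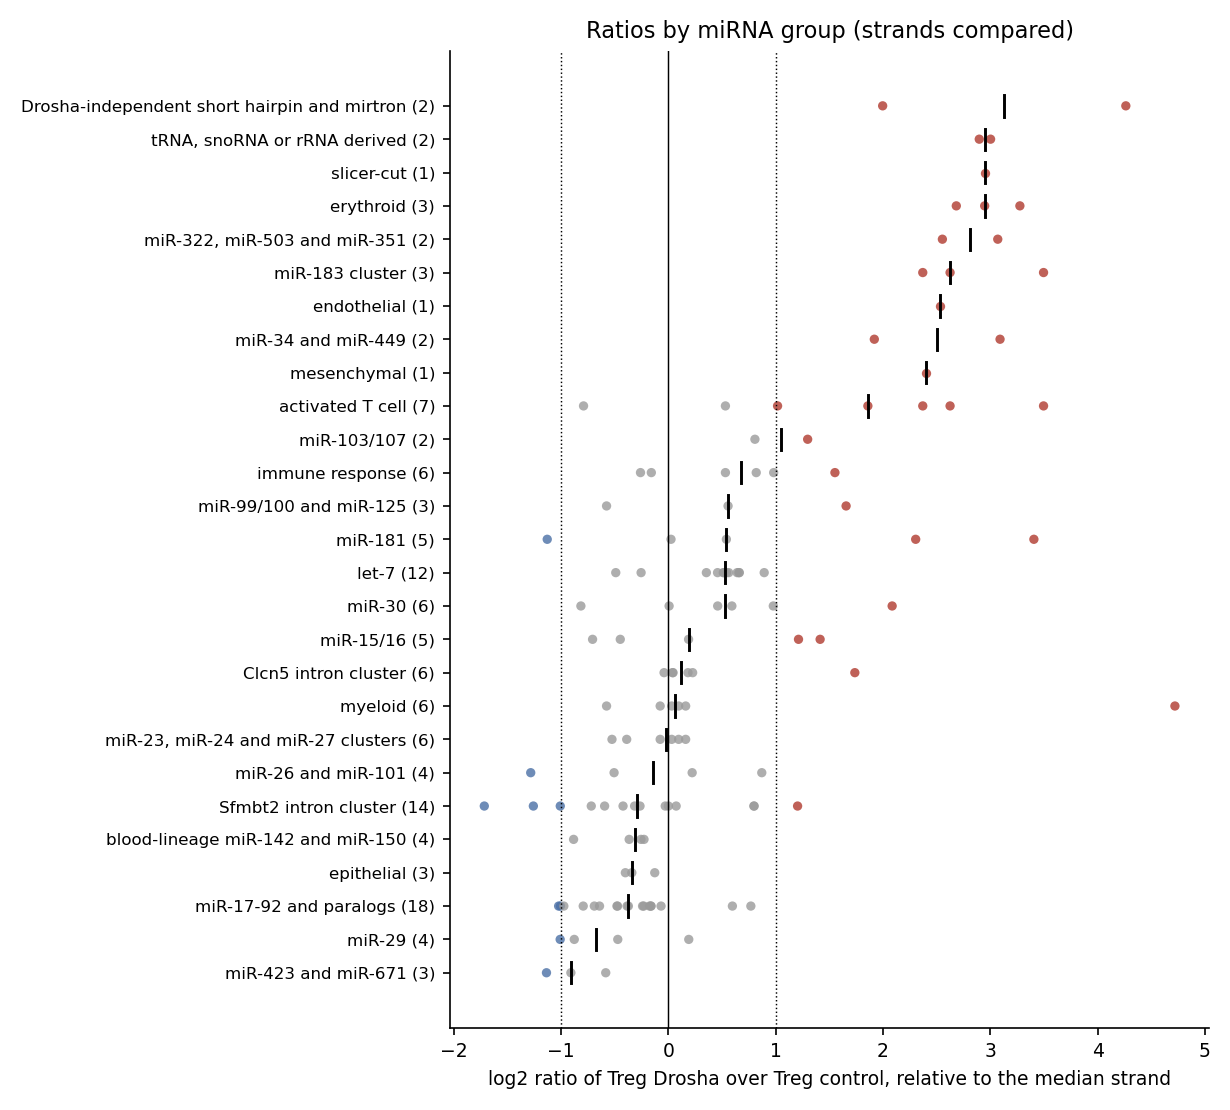
Log2 ratio of Treg Drosha over Treg control, relative to the median strand, for each compared strand of the preset miRNA groups (number of strands in brackets); the black bars are group medians and the dotted lines mark 1 log2 unit. All strands of the Drosha-independent, erythroid, miR-183 and miR-322 groups lie past 1, the 12 let-7 strands all lie within the lines, and the miR-181 group spreads from -1.13 to 3.41.

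The strands that were lower in Treg Drosha were mostly at modest values. miR-874 was lowest, at 11 in Treg Drosha and 67 in Treg control (-2.42). miR-378, whose hairpin lies in a gene of mitochondrial metabolism, was at 1040 in Treg Drosha, 1714 in Treg Dicer and 4155 in Treg control (-1.86). Its passenger miR-378* was at 134 in Treg Drosha and 497 in Treg control (-1.75), so that both arms of this hairpin were lower. miR-219 was at 37 in Treg Drosha and 124 in Treg control (-1.60), and miR-101a at 97 and 260 (-1.28). Both arms of the miR-342 hairpin in an intron of Evl were lower as well, miR-342-5p at 57 in Treg Drosha and 166 in Treg control (-1.40) and miR-342-3p at 2843 and 6357 (-1.03). miR-671-5p, whose hairpin lies in an exon of Chpf2, was at 83 in Treg Drosha and 201 in Treg control (-1.14). miR-1198 was at 17 and 47 in the same order (-1.31). miR-297c and miR-297a were at 16 and 37 in Treg Drosha, against 59 and 98 in Treg control.

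The miR-17-92 cluster and its paralogs, which promote lymphocyte proliferation, had a median of -0.38 over 18 strands, within the quartiles of all strands. Of the 18, 2 were lower past the limit, close to the 11.1% over all strands, and none was higher by as much, against 21.1%. The 2 were miR-19b, at 1122 in Treg Drosha and 2504 in Treg control (-1.02), and miR-19a, at 192 and 424 (-1.01). The guides with the seed AAAGUGC (miR-17, miR-20a, miR-20b, miR-93, miR-106a and miR-106b) summed to 17622 in Treg Drosha and 28369 in Treg control. miR-20a was at 6990 in Treg Drosha and 13305 in Treg control, and miR-17 at 2001 and 2481.

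Strands listed in 1 library only were mostly near the floor. Apart from miR-877, the highest in Treg Drosha were miR-322* at 53, miR-301b at 48, miR-195 at 36 and miR-153 at 31. Those listed in Treg control only were led by miR-339-3p at 60, miR-211 at 56, miR-700 at 30, miR-297b-5p at 28 and miR-466a-5p at 27. Of these, Treg Dicer listed miR-322* at 35, miR-195 at 32, miR-153 at 32 and miR-211 at 26.

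Sequence forms within a miRNA were compared for 67 strands at 500 or more in both libraries. These forms matter because the start of a miRNA sets its seed, while its end reflects where it was cut and later trimmed or extended. The libraries shared 815 guide and passenger sequences. The most abundant sequence differed in 11 strands (16.4%), and it started at the same base in each of them. With all sequences of a strand summed by their first base, the leading start was also the same in each strand but 1. The exception was miR-140*, where the leading form's start held 49.8% in Treg Drosha and 45.2% in Treg control and the start 1 base upstream held 49.5% and 54.5%. In 8 of the 11 the dominant form was longer in Treg Drosha (let-7b, miR-17, miR-19b, miR-29b, miR-29c, miR-30d, miR-30e and miR-93), and in 3 it was shorter (miR-142-3p, miR-16 and miR-181b). For the abundant miR-29b, the leading form had 23 nt in Treg Drosha and 22 nt in Treg control. For miR-16 it had 22 nt in Treg Drosha and 23 nt in Treg control. In Treg Dicer the 23-nt form of miR-29b (34058) also exceeded its 22-nt form (27630). The 22-nt form of miR-16 in Treg Dicer (60361) likewise exceeded its 23-nt form (48009). For miR-181b the 23-nt form led in Treg Dicer (112), as it did in Treg control (222).

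Treg Drosha miRNAs were slightly longer. The mean length over all sequences was 21.9 nt in Treg Drosha and 21.7 nt in Treg control, and sequences of 23 nt or more made up 27.6% of Treg Drosha and 21.6% of Treg control. Over the 67 strands, 43.2% of the difference came from longer forms within strands and 56.8% from the mix of strands. The mean length was higher in Treg Drosha in 47 strands and lower in 20, with a median difference of 0.062 nt. It was higher by at least 0.5 nt in 4 strands (5.97%) and lower by as much in 1 (1.49%). In the most abundant miRNA, miR-21, the 23-nt length held 26.6% of the strand in Treg Drosha and 15.9% in Treg control. The 21-nt length of miR-21 held 18.05% and 31.7% in the same order. The 23-nt form of miR-21 with the leading start was at 72935 in Treg Drosha, 71726 in Treg Dicer and 27109 in Treg control. The 23-nt length of let-7a held 13.0% in Treg Drosha and 7.59% in Treg control, and that of let-7f 10.4% and 5.92%. DN3 Drosha likewise had a mean length of 22.5 nt against 22.2 nt in DN3 control, and Treg Dicer one of 21.9 nt.

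All 4 strands that were longer by at least 0.5 nt had the seed AAAGUGC. Their differences were 0.83 nt for miR-17, 0.55 nt for miR-93, 0.53 nt for miR-20b and 0.51 nt for miR-20a, and the same family's miR-106a came next at 0.45 nt. In miR-17 the 24-nt length made up 29.7% in Treg Drosha, 15.5% in Treg Dicer and 8.99% in Treg control, and the 21-nt length 15.99%, 30.6% and 44.3% in the same order. The 21-nt length of miR-20a made up 10.2% in Treg Drosha and 23.98% in Treg control, and that of miR-93 22.3% and 38.5%. The share of the 24-nt length of miR-17 in DN3 Drosha was 23.7%, and in DN3 control it was 18.3%. miR-106b, which has the same seed, was an exception, with a mean length lower by 0.16 nt in Treg Drosha.

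miR-181b went the other way, with a mean length of 21.4 nt in Treg Drosha and 23.1 nt in Treg control. Its 21-nt form was at 285 in Treg Drosha and 63 in Treg control, or 48.2% and 9.87% of the strand. Its 23-nt form was at 82 in Treg Drosha and 222 in Treg control, and its 24-nt form at 53 and 211. A total that differed by 0.02 log2 units from the median strand thus held a different set of 3′ ends. In DN3 thymocytes, where miR-181b is far more abundant, the 21-nt length made up 3.15% in DN3 Drosha and 7.18% in DN3 control. In miR-181a the 21-nt form moved in the same direction, at 29.5% of the strand in Treg Drosha and 17.6% in Treg control, although its mean length differed by only -0.27 nt.

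**Figure D3:**
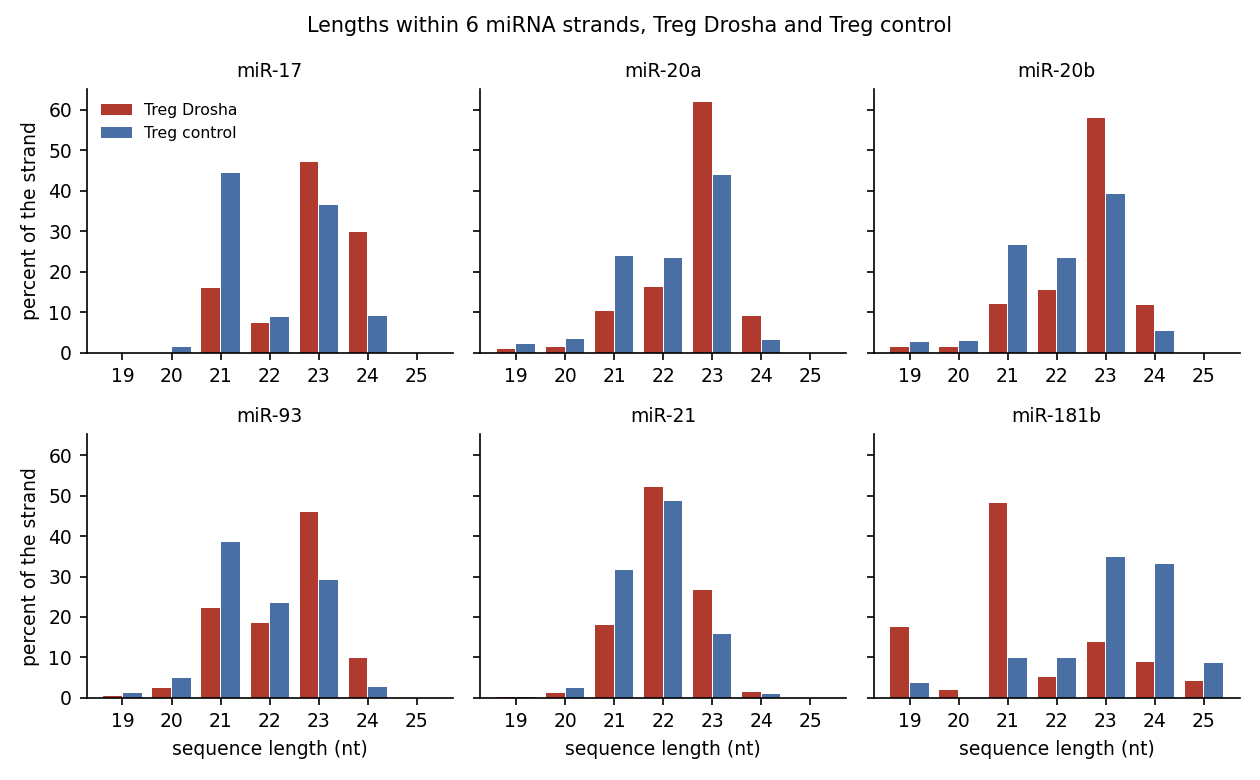
Share of each sequence length (nt) within 6 miRNA strands, in percent of the strand, for Treg Drosha (left bar) and Treg control (right bar). miR-17, miR-20a, miR-20b, miR-93 and miR-21 have more of the 23-nt length in Treg Drosha and more of the 21-nt length in Treg control, while miR-181b has 48.2% at 21 nt in Treg Drosha and 9.87% in Treg control.

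The 5′ ends differed less. None of the 67 strands (0%) moved by 10 percentage points in its share of sequences that start elsewhere than the leading form. The widest differences were in miR-142-5p, where this share was 42.6% in Treg Drosha and 51.4% in Treg control, and in miR-320, where it was 11.5% and 4.07%. The next were miR-10a (22.8% in Treg Drosha and 28.5% in Treg control), miR-467e (36.5% and 31.2%) and miR-142-3p (13.9% and 19.1%). The difference in miR-142-5p lay mainly in a single form, of 21 nt and starting 2 bases upstream. That form held 1.41% of the strand in Treg Drosha and 12.2% in Treg control, as described below. For miR-320, the starts 1 base upstream (21) and 2 bases downstream (93) were listed in Treg Drosha only. Treg control, where miR-320 was lower, may have held them below the floor of 10. The start 1 base downstream, listed in both, held 7.66% in Treg Drosha and 4.07% in Treg control.

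Single sequences could move much further than their miRNA. Of 128 sequences at 1000 or more in either library, 6 (4.69%) lay at least 1 log2 unit below the ratio of their own strand and 1 (0.781%) as far above it. The lowest was the 21-nt form of miR-142-5p that starts 2 bases upstream, at 661 in Treg Drosha, 3761 in Treg Dicer and 11596 in Treg control. It made up 1.41% of the strand in Treg Drosha and 12.2% in Treg control, whereas the form 1 base shorter with the same start held 18.7% and 17.2% and the form 1 base longer held 12.7% and 13.3%. The last base of this sequence is position 19 counted from the start of the leading form. All forms of miR-142-5p that end there, whatever their start, made up 3.20% in Treg Drosha, 9.29% in Treg Dicer and 16.7% in Treg control. In DN3 thymocytes the share was 3.76% in DN3 Drosha and 2.49% in DN3 control. This set of sequence ratios was examined after the values had been seen.

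**Figure D4:**
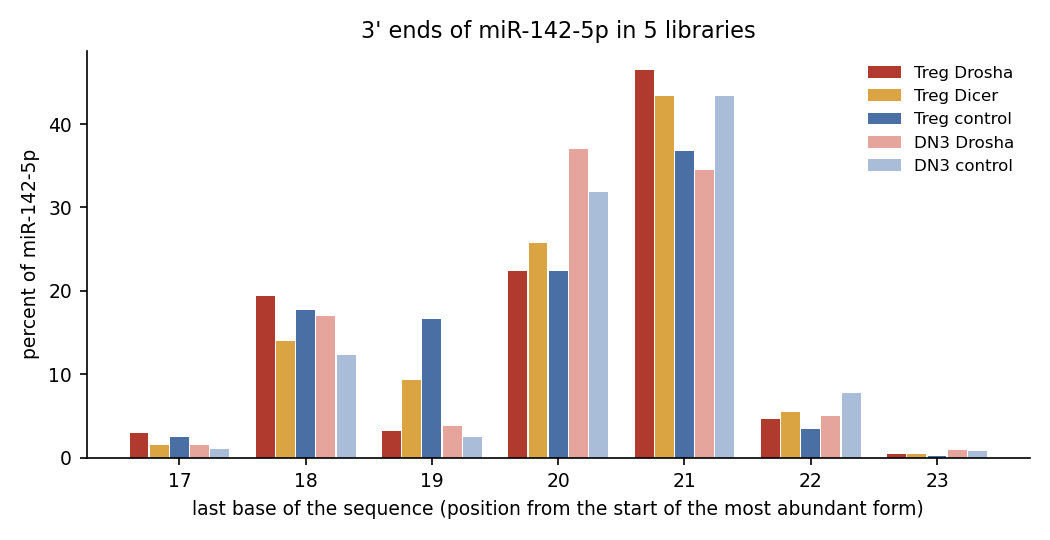
Share of miR-142-5p by the last base of the sequence, counted from the start of its most abundant form, in percent of the strand for 5 libraries. At position 19 Treg Drosha has 3.20%, Treg Dicer 9.29% and Treg control 16.7%, while the neighbouring positions 18 and 20 differ less between Treg Drosha and Treg control.

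Sequences labelled as precursor rather than as guide or passenger were few, 0.431% of the Treg Drosha library and 0.549% of the Treg control library. miR-142 led them, with forms that overlap mature miR-142-5p. Its precursor forms summed to 1142 in Treg Drosha and 3656 in Treg control, or 2.38% and 3.72% of these and mature miR-142-5p together. Its most abundant precursor form had 22 nt and was at 789 in Treg Drosha and 1790 in Treg control. The form 1 base shorter was at 85 in Treg Drosha and 1414 in Treg control, and it ends at position 18.
miR-142 precursor form, 22 nt: acccataaagtagaaagcacta
miR-142 precursor form, 21 nt: acccataaagtagaaagcact

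Precursor forms of miR-16 summed to 357 in Treg Drosha and 128 in Treg control, and the loop of miR-142 was at 66 and 138. Most of the miR-16 sum was a 25-nt form that contains the mature strand, at 295 and 116. A form that does not overlap mature miR-16 was at 13 in Treg Drosha, and another at 12 in Treg control. Passenger sequences made up 0.632% of the Treg Drosha library and 0.948% of the Treg control library.

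The DN3 comparison uses separate libraries throughout, another Cre and its own control. Of 168 strands compared there, 28 (16.7%) were higher in DN3 Drosha and 37 (22%) lower. Over the 149 strands compared in both cell types, the Treg and DN3 ratios had a Pearson correlation of 0.10 and a Spearman correlation of 0.12; the points share cell-type libraries within each axis and are not independent. Of the strands higher in Treg Drosha, 29 could be compared in DN3, where 8 were higher and 6 lower. Of those lower in Treg Drosha, 17 could be compared, and in DN3 1 was lower and 2 higher. miR-320 (2.82 in DN3), miR-503 (1.52 in DN3) and miR-181a (1.11 in DN3) were among those higher in both, whereas miR-484 lay at 0.70 and miR-451 at 0.12 in DN3.

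**Figure D5:**
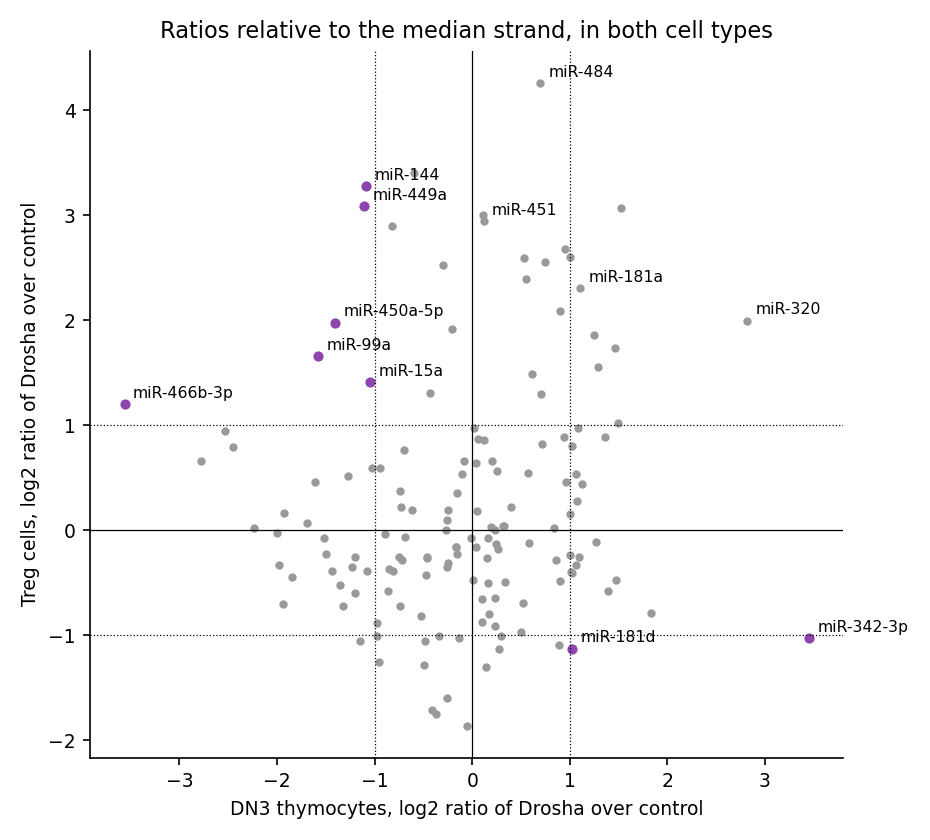
Log2 ratio of Drosha over control relative to the median strand, in Treg cells (vertical) against DN3 thymocytes (horizontal), with 1 point for each of the 149 strands compared in both. The dotted lines mark 1 log2 unit, and the purple points are the 8 strands past it in opposite directions.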

How the data were processed

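The deposited miRNA lists give a normalized value for each distinct sequence with its miRNA and hairpin part (guide, passenger, pre or loop), per the file headers. They are treated as scores, because the authors rounded them to whole numbers. Adaptors were clipped and reads mapped to miRNA loci, per the labels; of the aligner, the miRBase release, the genome build and the read depth, each is not given in the sources used here. Sequences of one strand of a miRNA were added up after the locus copy number was dropped. The minimum summed value was 50, the pseudocount 0.5, and a strand was called at 1 log2 unit (2-fold) from the median ratio. Each group had 1 library, so no test was made. Forms were compared on strands at 500 or more in both libraries, with 5′ ends placed against the sequence of the highest sum.

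The miRNAs and lists described were chosen with earlier results of these data known. Named miRNAs are the 10 most abundant strands of each library, the 10 highest and 10 lowest ratios, the 5 highest strands listed in 1 library only, members of the lists, the strands whose forms differed most, the most abundant precursor sequences and the opposite calls in DN3. Mature sequences, coordinates and the overlapping genes came from RefSeq (GRCm38.p6) and a GENCODE annotation of that build. Scripts used Python 3.11.15, pandas 2.3.3 and numpy 2.4.6.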

Additional observations from a re-analysis of the deposited data

Results flagged for a closer look

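Of the strands past 1 log2 unit in Treg cells, 8 were past it in the opposite direction in DN3 thymocytes. Of the 29 strands higher in Treg Drosha and compared in DN3, 6 were lower there, as were 22% of all DN3 strands. Of the 17 lower in Treg Drosha, 2 were higher in DN3, as were 16.7% of all DN3 strands. In the same direction in both cell types were 8 of the 29 and 1 of the 17. Each difference below is the Treg ratio minus the DN3 ratio, both being Drosha over control. With 1 library per group and cell type, none of these differences was tested.

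miR-144 differed by 4.36, with 648 in Treg Drosha and 73 in Treg control, and 123 in DN3 Drosha and 341 in DN3 control. miR-449a differed by 4.20, with 81 in Treg Drosha and 10 in Treg control, and 65 in DN3 Drosha and 183 in DN3 control. miR-450a-5p differed by 3.38, with 170 and 47 in Treg Drosha and Treg control, and 99 and 342 in DN3 Drosha and DN3 control. miR-99a differed by 3.24, at low values in Treg cells (44 in Treg Drosha and 15 in Treg control) and at 191 in DN3 Drosha and 745 in DN3 control.

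miR-15a differed by 2.46 and was the most abundant of the set, with 10616 in Treg Drosha and 4373 in Treg control, and 3549 in DN3 Drosha and 9548 in DN3 control. miR-466b-3p differed by 4.77, with 74 in Treg Drosha and 35 in Treg control, and 13 in DN3 Drosha and 207 in DN3 control.

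In the other direction, miR-342-3p differed by -4.48, with 2843 in Treg Drosha and 6357 in Treg control, and 416 in DN3 Drosha and 49 in DN3 control. miR-181d differed by -2.16, with 68 in Treg Drosha and 164 in Treg control, and 3734 in DN3 Drosha and 2384 in DN3 control.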

How the results depend on the processing

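Across 9 alternative settings, the number of strands higher in Treg Drosha ran between 32 and 42 in 8 of them and was 15 with a minimum summed value of 500, where 95 strands were compared. The number lower was 8 with that minimum and 11 with the median of ratios at 1000 or more as the centre, and otherwise ran between 13 and 23. The number of strands whose mean length differed by 0.5 nt or more was 3, in place of 5, among the 37 strands at 2000 or more. Of 1446 alternative ratios of the 171 compared strands, 1391 stayed on the same side of 1 log2 unit, 34 fell inside it, 21 moved past it and 0 changed sign after being called. Of the 55 calls, 40 stayed past the limit in every setting that compared the strand. Fewer strands were compared at the higher minimums; the cause of the other moves was not tested. No paired analysis was possible because each group has 1 library. The unknown depth limits strands near the floor of 10 most, and values scaled to the library total cannot show a change shared by all miRNAs.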
